A study of Canis lupus familiaris with 5 samples.

Results

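Interferon response genes were followed across 5 canine lymphoid tumour cell lines. The 49 genes were chosen by name as a list of interferon-induced genes and the factors that switch them on. The list was drawn up with earlier results of these data known, so member shares set beside all genes are descriptions only. Every probe set whose annotated gene symbol is on the list was taken. Of the 49 genes, 42 had a probe set of their own, 82 of the 42924 dog probe sets and 42 of 15115 genes in all. DDX58, OASL, IFIT1, IFIT3, BST2, SAMD9 and LGALS3BP had none and are not described. Where a gene had several probe sets, the brightest on average stood for it; 22 genes had a single probe set, and the further probe sets of the other 20 were read beside it. The values are log2 intensities on Affymetrix canine arrays from total RNA, so a step of 1 is a doubling of the signal.

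The lines carry a lineage label. 17-71, labelled a B-lymphoid malignancy, and GL-1, labelled B-cell leukemia, form the B group (n = 2). The T group (n = 3) holds CL-1, a T-cell leukemia called primitive with an alpha-beta receptor, CLGL-90, a leukemia of large granular lymphocytes (LGL) labelled T-cell, and CLL-1390, a primitive T-cell leukemia. All 5 were cultures in RPMI with 10% fetal bovine serum, and their labels name no treatment, so none is recorded as given interferon. Each line is 1 array, and normal lymphocytes were not analysed here.

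Interferons are secreted proteins that warn cells of infection. Type I interferons act on a receptor of IFNAR1 and IFNAR2 chains, whose kinases JAK1 and TYK2 activate STAT2, which joins IRF9 in a complex that switches on genes with an interferon-stimulated response element. Interferon gamma acts on IFNGR1 and IFNGR2 through JAK1 and JAK2, and its targets overlap with those of type I. The products bind foreign RNA, block viral entry and assembly, tag proteins with ISG15 and amplify or end the signal.

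Background was read from 59 control probe sets for sequences that dogs lack. Their medians ran from 4.07 to 4.29 over the arrays and the highest of them from 6.39 to 6.76. Of the 205 values of the 41 tested members, 58 lay at or under the highest control of their array. Every value of 21 members lay above it, and every value of 5 tested members (EIF2AK2, IRF7, IFIT2, HERC5 and CMPK2) lay at or under it. With RSAD2 that is 6 of 42 members (14.3%), beside 24.1% of all genes with a probe set. RSAD2, the antiviral enzyme viperin, read 4.32, 4.26, 4.12, 4.54 and 4.39 in 17-71, GL-1, CL-1, CLGL-90 and CLL-1390, did not reach log2 5 on 2 arrays, and was not tested. A value at background shows neither expression nor its absence. Levels of different genes were not set against each other, except in the summed marker levels, where bright probe sets weigh most. Checked against lineage markers, each of the 5 lines went against its label in part. Of the 9 T-cell markers with a probe set, 3 lay above the highest control in 17-71 and 6 in GL-1, against 4 in CL-1, 9 in CLGL-90 and 6 in CLL-1390. The library labelled CL-1 read 5.44 for CD3D and 5.34 for CD3G, both at background, although it had CD247 (11.16) and LCK (8.88). The library labelled GL-1 read 9.78 for CD3D, 10.01 for CD3G and 10.65 for LCK, T-cell genes in a B-labelled line. 17-71, also B-labelled, read 11.42 for the T-cell gene CD2. With their label, T-labelled CLL-1390 read 10.89 for CD3D, 8.86 for CD3G and 11.44 for LCK, and all 9 T-cell markers reached log2 8 in CLGL-90. Of the 9 B-cell markers with a probe set, 4 lay above the highest control in 17-71 and 4 in GL-1, against 2 in CL-1, 4 in CLGL-90 and 2 in CLL-1390. CD79A was above it in GL-1 alone (7.83), CD79B and CD22 in no line and PAX5 in every line. MS4A1 (CD20) was above it in CLGL-90 alone, and only by little (6.79, where the highest control read 6.76). EBF1 read 7.71 in B-labelled GL-1 and 6.23 to 6.41 in the other lines. BTK read 11.52 in 17-71 and 11.46 in GL-1, and also 11.23 in T-labelled CLL-1390, while BLNK read 8.12 in 17-71 and 9.90 in T-labelled CLGL-90.

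The members differed widely between single lines. Of the 41 tested, 16 varied by log2 2 or more over the 5 lines (39%), where 14.2% of all 14162 tested genes did. With every value floored at the highest control of its array, 9 members (OAS2, USP18, MX1, TRIM22, IFI44, IFI44L, PARP9, DTX3L and GBP5) varied as much, 22% of the 41, beside 12% of all genes. They did not vary as a block. MX1 stood out in GL-1, OAS2 in 17-71, IFI44 in CL-1 and TRIM22 and GBP5 in CLGL-90, while PARP9 and DTX3L were lowest in CL-1 and PARP14 lay at background in CL-1 and CLGL-90. With 1 array per line, these are descriptions of single cultures with no replicate error, and in bulk RNA fewer cells that express a gene and less RNA per cell cannot be told apart.

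**Figure D1:**
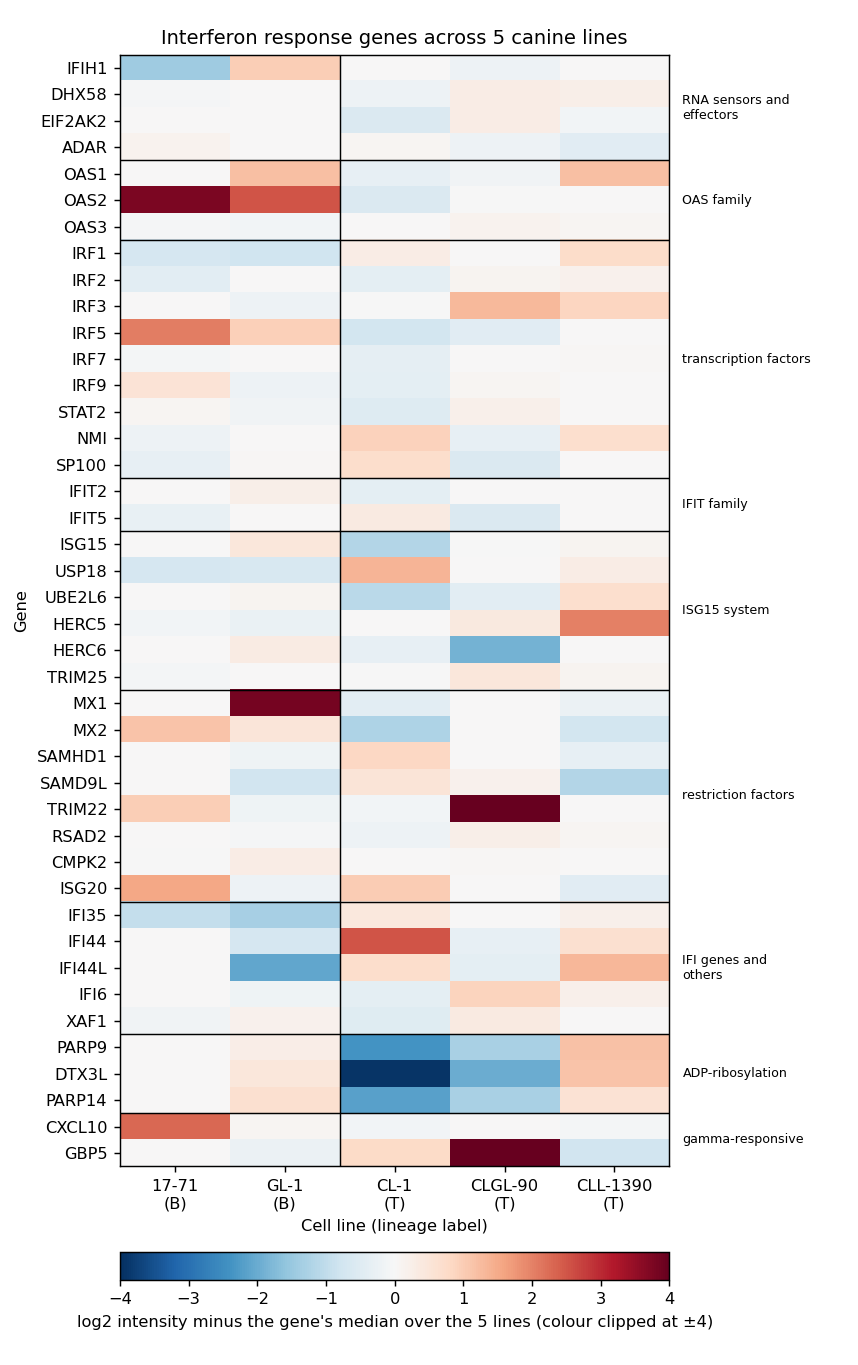
Heat map of the 42 members (rows, grouped by role) in the 5 lines (columns, B-labelled left of T-labelled); colour is the log2 intensity minus the gene's median over the lines. Single strong cells stand out, such as MX1 in GL-1 and TRIM22 and GBP5 in CLGL-90, and the PARP9, DTX3L and PARP14 rows are blue in CL-1 and CLGL-90.

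Among the RNA sensors, IFIH1 (MDA5), which binds long double-stranded RNA, varied most. It measured 6.07 in 17-71 and 8.48 in GL-1, against 7.52 in CL-1, 7.28 in CLGL-90 and 7.49 in CLL-1390. GL-1 was thus highest and 17-71 lowest, at background, so the B lines enclosed the T lines. DHX58 (LGP2), a helper of these sensors, varied by 0.51, and ADAR, which edits double-stranded RNA, by 0.59. EIF2AK2 (PKR), which halts translation when it binds such RNA, lay at background on every array.

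The OAS enzymes make a messenger that activates RNase L, and the 3 measured ones differed in pattern, while OAS1, OAS3 and OAS2 lie next to each other in the gene order of assembly UU_Cfam_GSD_1.0. OAS2 read 9.96 in 17-71 and 8.71 in GL-1, against 5.62 in CL-1, 6.20 in CLGL-90 and 6.20 in CLL-1390. Both B lines lay above every T line, and all 3 T values lay under the highest control. OAS1 measured 7.55 in 17-71 and 8.74 in GL-1, against 7.21 in CL-1, 7.42 in CLGL-90 and 8.74 in CLL-1390. It was high in GL-1 and CLL-1390 and low in the other 3 lines, across the lineage labels. OAS3 varied by only 0.25 (7.37 to 7.62), less than any other measured OAS gene.

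The other probe sets of OAS1 showed the same pair of lines. A second one read 6.93 in 17-71 and 9.39 in GL-1, against 6.42 in CL-1, 6.29 in CLGL-90 and 9.09 in CLL-1390. Another measured 5.82, 8.09, 5.80, 5.44 and 7.96 in the same order of lines. In all 3 further OAS1 probe sets that varied by log2 1 or more GL-1 was highest and CLL-1390 next, and the remaining one lay at background throughout.

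The ubiquitin-like modifier ISG15 and its partners did not move as one. ISG15 read 8.32 in 17-71 and 8.78 in GL-1, against 7.15 in CL-1, 8.30 in CLGL-90 and 8.43 in CLL-1390. CL-1 thus lay 1.15 below the nearest other line. UBE2L6 (UBCH8), the enzyme that carries ISG15 to its targets, was also lowest in CL-1, at 11.25 in 17-71 and 11.34 in GL-1, against 10.17 in CL-1, 10.82 in CLGL-90 and 11.93 in CLL-1390. USP18, which takes ISG15 off again and restrains the type I receptor, ran the other way. It measured 8.11 in 17-71 and 8.13 in GL-1, against 10.15 in CL-1, 8.78 in CLGL-90 and 9.09 in CLL-1390, so CL-1 was highest and both B lines lowest.

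HERC5 and HERC6 are neighbouring genes of 1 ligase family, and HERC5 joins ISG15 to proteins in human cells. HERC6 read 7.92 in 17-71 and 8.25 in GL-1, against 7.60 in CL-1, 6.04 in CLGL-90 and 7.94 in CLL-1390. Only CLGL-90 read low, under the highest control of its array. HERC5 read 6.68 in CLL-1390 and 4.38 to 5.05 in the other 4 lines. It passed the filter through CLGL-90 and CLL-1390 alone, both T-labelled, and its difference cannot be told from background. TRIM25, the ligase that activates the sensor RIG-I, varied by 0.52.

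MX1 marked GL-1. It encodes a dynamin-like GTPase that traps viral ribonucleoproteins. MX1 measured 11.34 in GL-1, against 7.51 in 17-71, 7.06 in CL-1, 7.50 in CLGL-90 and 7.26 in CLL-1390. GL-1 lay 3.83 above the next line, 14.2-fold, with every value above the controls. Its neighbour MX2, a nuclear-envelope relative, did not share that pattern. MX2 read 8.36 in 17-71 and 7.71 in GL-1, against 5.99 in CL-1, 7.22 in CLGL-90 and 6.50 in CLL-1390. Both B lines lay above every T line, with CL-1 and CLL-1390 at background. MX1 and MX2 have 1 probe set each, so neither pattern could be read from another.

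Other restriction factors marked other lines. TRIM22, a ligase that restricts retroviruses in human cells, measured 10.51 in CLGL-90, against 6.34 in 17-71, 5.20 in GL-1, 5.27 in CL-1 and 5.37 in CLL-1390. All 4 other lines lay at background, so CLGL-90 stood at least log2 3.81 above them, with each of those values raised to the highest control of its array. ISG20, an exonuclease that degrades RNA, read 8.09 in 17-71 and 6.33 in GL-1, against 7.56 in CL-1, 6.55 in CLGL-90 and 6.10 in CLL-1390. It was above background in 17-71 and CL-1 alone. SAMD9L, a brake on growth and viral translation, measured 10.29 in 17-71 and 9.51 in GL-1, against 10.82 in CL-1, 10.45 in CLGL-90 and 9.12 in CLL-1390. GL-1 and CLL-1390, the lines with high OAS1, were the lowest for SAMD9L. SAMHD1, which depletes nucleotides, read 7.07 in CL-1 and 5.88 to 6.23 in the others, at background in all but CL-1. CMPK2, a mitochondrial kinase encoded next to RSAD2, lay at background by the probe set that represents it (5.86 to 6.18), as by its other 3, the highest of which read 6.52 in GL-1.

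**Figure D2:**
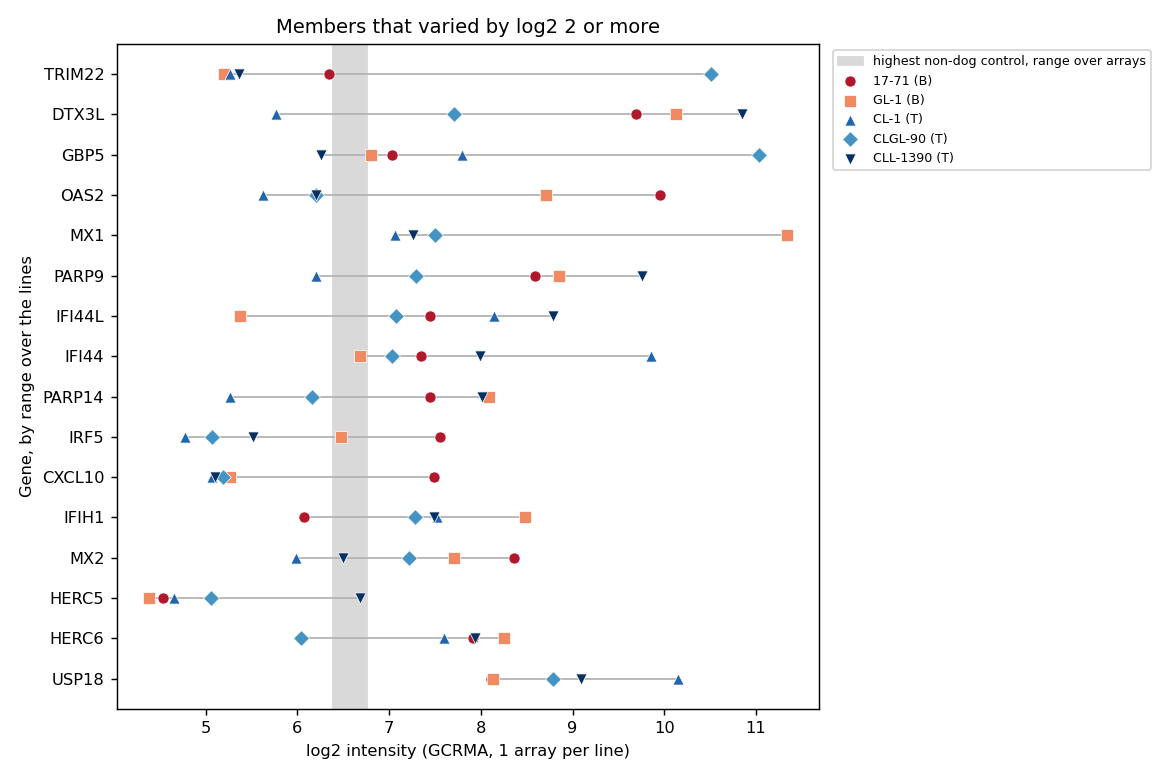
Log2 intensity (horizontal axis) of the 16 members that varied by log2 2 or more, 1 point per line and array; the grey band spans the highest non-dog control of the 5 arrays. TRIM22 reaches 10.51 in CLGL-90 alone and MX1 11.34 in GL-1 alone, whereas DTX3L and PARP9 spread widely, and all HERC5 points lie in or under the band.

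PARP9, DTX3L and PARP14 followed nearly the same order of lines. DTX3L is a ubiquitin ligase that works as a complex with PARP9, and PARP14 is an ADP-ribosyltransferase; the 3 genes lie side by side in the reference gene order, with PARP15 between DTX3L and PARP14. DTX3L read 9.69 in 17-71 and 10.13 in GL-1, against 5.76 in CL-1, 7.70 in CLGL-90 and 10.84 in CLL-1390. PARP9 measured 8.59 in 17-71 and 8.86 in GL-1, against 6.20 in CL-1, 7.29 in CLGL-90 and 9.75 in CLL-1390. PARP14 read 7.44 in 17-71 and 8.08 in GL-1, against 5.27 in CL-1, 6.16 in CLGL-90 and 8.01 in CLL-1390. In all 3, CL-1 lay at background, CLGL-90 lay under the other 3 lines, 17-71 came next, and GL-1 and CLL-1390 were highest. PARP14 was at background in CLGL-90 as well, so the order of CL-1 and CLGL-90 cannot be told for it. From the lowest to the highest line DTX3L differed by 5.08 by its brightest probe set. On that probe set the step is at least 21.9-fold once CL-1 is raised to its highest control. The other probe set of DTX3L gave the same order but a smaller range of 2.02, from 6.77 in CL-1 to 8.79 in CLL-1390. All its values lay above the highest control, so the size of the DTX3L step is uncertain. The other probe set of PARP14 lay at background in every line.

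IFI44 and IFI44L, neighbouring genes that dampen interferon signalling in human cells, shared their lowest line and not their highest. IFI44 measured 7.34 in 17-71 and 6.69 in GL-1, against 9.85 in CL-1, 7.03 in CLGL-90 and 7.99 in CLL-1390. IFI44L read 7.45 in 17-71 and 5.37 in GL-1, against 8.14 in CL-1, 7.07 in CLGL-90 and 8.78 in CLL-1390. CL-1 and CLL-1390 were the highest lines for both and GL-1 the lowest. Each further probe set gave the same highest line and lay at background in 17-71, GL-1 and CLGL-90, so it does not bear on the lowest. GL-1, the line with the highest MX1, ISG15 and IFIH1, was therefore lowest for both. IFI6, which keeps mitochondria from triggering cell death, varied by 1.27 and XAF1, an antagonist of a caspase inhibitor, by 0.84, both highest in CLGL-90.

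IFI35 and NMI are partner proteins that bind each other. IFI35 measured 9.58 in 17-71 and 9.21 in GL-1, against 10.96 in CL-1, 10.54 in CLGL-90 and 10.76 in CLL-1390. All 3 T lines lay above both B lines, in each of its 4 probe sets. NMI read 10.79 in 17-71 and 10.98 in GL-1, against 11.91 in CL-1, 10.66 in CLGL-90 and 11.66 in CLL-1390. By this probe set of NMI the T lines lay on both sides of the B lines, with CLGL-90 the lowest of all. CLGL-90 was also lowest in the 4 further probe sets that varied by log2 1 or more. CL-1 was highest in 3 of these, but in the other GL-1 was highest, at 11.21 against 10.62 in CL-1 and 10.81 in CLL-1390.

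Of the 9 transcription factors and cofactors in the list, IRF1, IRF3, IRF5, NMI and SP100 (5) varied by log2 1 or more, beside 39% of all genes, and IRF2, IRF7, IRF9 and STAT2 by less. IRF2, which opposes IRF1 at shared sites, varied by 0.60, and IRF9, the DNA-binding part of the type I complex, by 0.94. IRF7, the master inducer of interferon alpha, lay at background (5.91 to 6.32), which says nothing of its expression. IRF1, an activator induced by interferon gamma, measured 8.89 in 17-71 and 8.77 in GL-1, against 9.87 in CL-1, 9.57 in CLGL-90 and 10.31 in CLL-1390, so every T line lay above both B lines. Both further probe sets of IRF1 separated the labels too. IRF5, which drives inflammatory cytokines in myeloid and B cells, ran the other way, at 7.55 in 17-71 and 6.48 in GL-1, against 4.77 in CL-1, 5.06 in CLGL-90 and 5.51 in CLL-1390. Only 17-71 exceeded its highest control. IRF3, the factor that sensors activate first, read 11.11 in 17-71 and 10.91 in GL-1, against 11.09 in CL-1, 12.42 in CLGL-90 and 11.97 in CLL-1390. CLGL-90 and CLL-1390 were the higher lines, again by both probe sets. SP100, a nuclear body protein, had 4 probe sets whose highest line differed.

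The probe sets of STAT2, the activator used by type I interferons, disagreed. The one of highest mean read 10.15 in 17-71 and 9.92 in GL-1, against 9.56 in CL-1, 10.27 in CLGL-90 and 10.07 in CLL-1390, so CL-1 was lowest. In the 3 further probe sets that varied, CL-1 was highest instead. They read 9.22, 9.09 and 8.75 in CL-1, where no other line exceeded 7.90, 7.33 and 7.34. STAT2 levels across the lines are thus uncertain, since it varied by 0.71 by the first probe set and by 2.85 by the last.

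**Figure D3:**
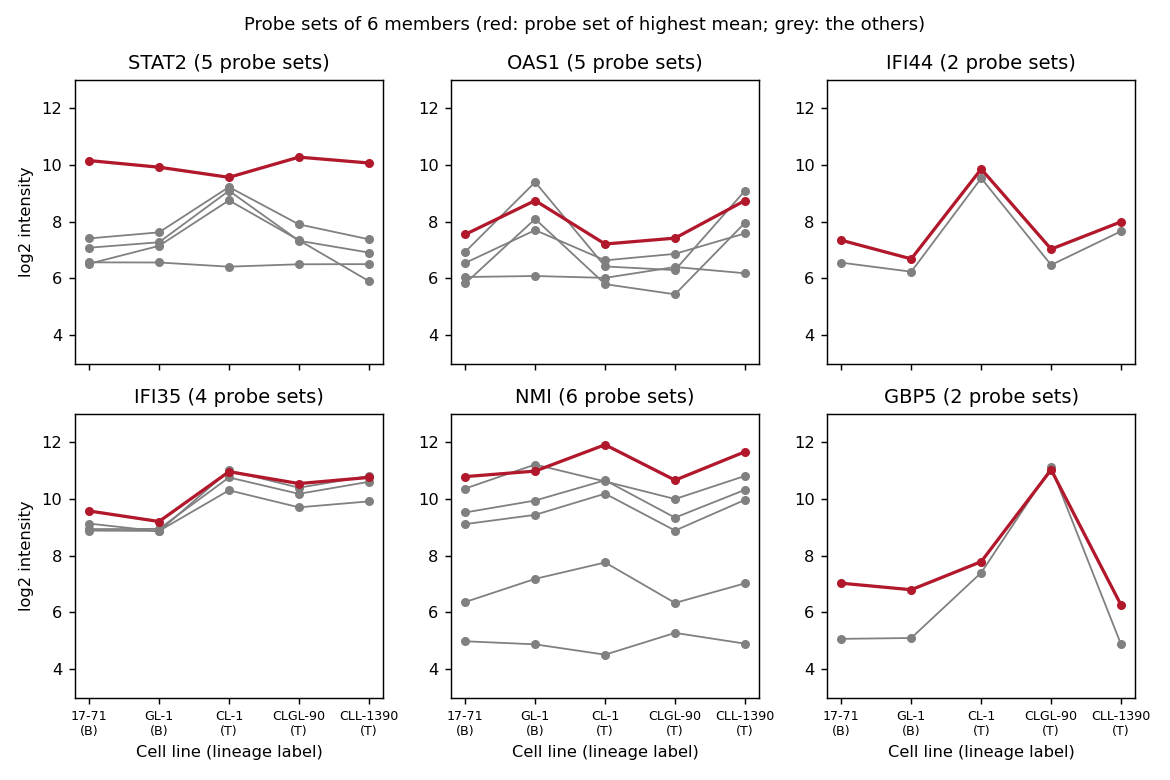
Log2 intensity of every probe set of 6 members in the 5 lines, B-labelled left of T-labelled; red is the probe set of highest mean and grey the others. IFI44, IFI35 and GBP5 repeat their pattern over their probe sets, 3 grey STAT2 lines peak in CL-1 where the red one dips, and 1 NMI and 1 OAS1 probe set lie low in every line.

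The IFIT proteins bind viral RNA ends. IFIT5 varied by 0.92 (7.65 to 8.58) and IFIT2 lay at background, so this family gave little.

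The gamma-responsive members each marked a line. GBP5, a guanylate-binding protein that promotes inflammasome assembly, measured 11.03 in CLGL-90, against 7.03 in 17-71, 6.80 in GL-1, 7.79 in CL-1 and 6.26 in CLL-1390, 9.44-fold above the next line. Its other probe set placed the lines alike, at 11.11 in CLGL-90, 7.40 in CL-1 and 4.87 to 5.10 in the other 3. CXCL10, a chemokine that draws activated T cells, read 7.49 in 17-71, against 5.26 in GL-1, 5.06 in CL-1, 5.18 in CLGL-90 and 5.10 in CLL-1390. It was above background in 17-71 alone, and its other probe set read 7.02 there and 4.02 to 4.43 elsewhere.

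Counted by line, a few members stood at least log2 1 above or below every other line. In 17-71 these were OAS2, IRF5 and CXCL10 above (3 of 41, beside 2.01% of all tested genes) and IFIH1 below (1, beside 0.967%). In GL-1 they were MX1 above (beside 1.09% of all genes) and IFI44L below (0.558%). CL-1 had USP18 and IFI44 above (2 of 41, beside 3.5%) and ISG15, PARP9 and DTX3L below (3 of 41, beside 0.967%). CLGL-90 had TRIM22 and GBP5 above (2 of 41, beside 1.51%) and HERC6 below (1, beside 0.784%), and CLL-1390 had HERC5 above (1, beside 1.48%) and none below (0 of 41, beside 1.21%). These counts are too small to read against the background. The line with the most members at their highest was CLGL-90, with 10 of 41 (24.4%, beside 27% of all genes), and CL-1 was highest for 8 (19.5%, beside 23.5%). GL-1 was highest for 8 (19.5%, beside 12.2%) and 17-71 for 7 (17.1%, beside 16.1%). The 8 of GL-1 include OAS1, in which GL-1 and CLL-1390 tied at 8.74. Members at background on every array were counted too: IFIT2 and CMPK2 in GL-1, EIF2AK2 in CLGL-90, and IRF7 and HERC5 in CLL-1390. CLL-1390 was highest for 8 (19.5%, beside 21.2%) and lowest for 5 (12.2%, beside 14.1%). CL-1 was the lowest line for 19 of 41 members (46.3%), where it was lowest for 36.9% of all genes. The median offset of CL-1 from the middle of the other 4 lines was -0.33 over the members, beside -0.08 over all genes. The 19 include EIF2AK2, IRF7 and IFIT2, at background on every array, and IRF5 and CXCL10, above it in 17-71 alone. In OAS2, MX2 and PARP14, CL-1 shared background with another line. For STAT2, 3 further probe sets put CL-1 highest. The median (6.87) and the highest control (6.39) of the CL-1 array were the lowest of the 5 arrays. Their part in the count and the offset was not tested.

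Every pair of lines differed in a larger share of members than of all genes, with values not floored. Pairs were not counted with values floored at the highest control. Some counted gaps lie wholly at background, such as IRF5 between GL-1 (6.48) and CL-1 (4.77). GL-1 and CL-1 were at least log2 1 apart in 18 of 41 members (43.9%), beside 15.6% of all tested genes. The pairs with the fewest were 17-71 and GL-1, both B-labelled, and GL-1 and CLL-1390, each with 9 members (22%), beside 12.2% and 11.1% of all genes. CLGL-90 and CLL-1390, both T-labelled, differed in 12 members (29.3%), beside 12.8%. The 9 members that differed between GL-1 and CLL-1390 were OAS2, MX1, MX2, IRF1, IRF3, IFI35, IFI44, IFI44L and HERC5, of which HERC5 lay at background in both lines, while OAS1, ISG15, PARP9, DTX3L and PARP14 were within log2 1 of each other in these lines.

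**Figure D4:**
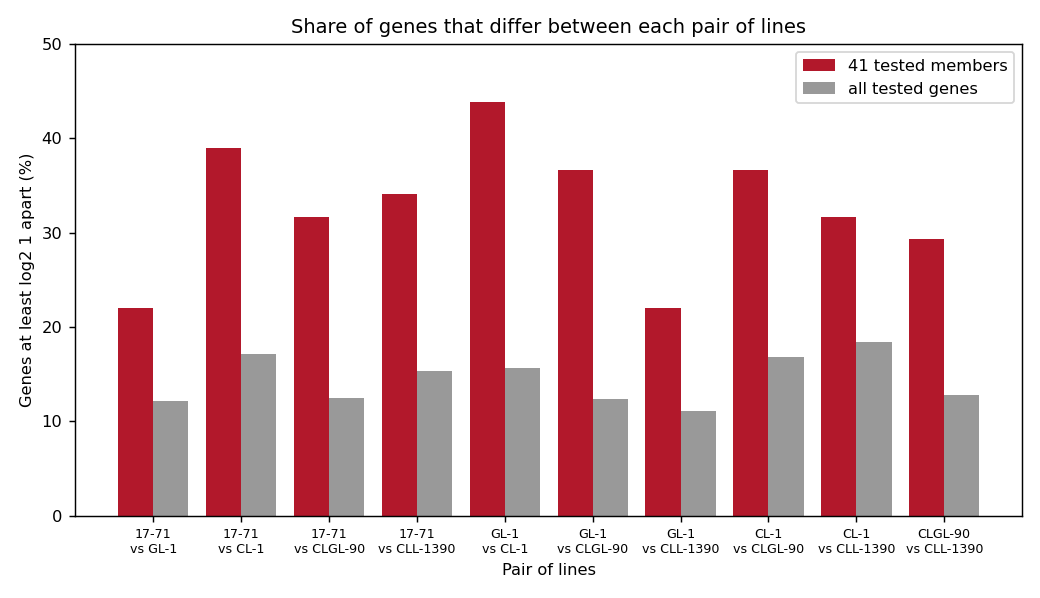
Percentage of genes at least log2 1 apart in each of the 10 pairs of lines, for the 41 tested members (red) and all 14162 tested genes (grey). The members' bars run from 22% to 43.9% and the grey bars from 11.1% to 18.4%, with values not floored at the controls.

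The lineage label did not separate the members by the test. No member passed in limma with Benjamini-Hochberg adjustment over all 14162 genes (0 of 41, beside 0.00706% of all genes). At an unadjusted limma p under 0.05 there were 6 members, beside 3.52% of all genes. None of the members' 78 tested probe sets passed (0, beside 0.0136% of all probe sets). Of these probe sets 11 had an unadjusted limma p under 0.05, a count for which no share over all probe sets was taken. The median difference of the 41 members was 0.06, beside -0.03 over all genes. Both B lines lay above every T line in 5 members (OAS2, IRF5, MX1, MX2 and CXCL10; 12.2%, beside 6.12% of all genes) and below every T line in 5 (OAS3, IRF1, USP18, HERC5 and IFI35; 12.2%, beside 9.26%). Several of these separations are not firm. HERC5 lay at background in every line, CXCL10 and IRF5 lay there in GL-1 and all 3 T lines, and MX1 in 17-71 exceeded the highest T line by only 0.014. OAS3 lay within 0.25 over all lines. With 2 lines against 3, the spread between lines of 1 label limits what the fit can call.

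OAS2 had the lowest adjusted p of the members. It averaged 9.34 ± 0.88 in B-labelled lines and 6.01 ± 0.33 in T-labelled lines (SD, n = 2 and 3), a difference of 3.33 (SE 0.45, limma adjusted p = 0.487) that is at least 2.72, or 6.59-fold, with the T values raised to the highest control. IFI35 averaged 9.39 ± 0.26 in B-labelled and 10.75 ± 0.21 in T-labelled lines, a difference of -1.36 (SE 0.23, limma adjusted p = 0.802). Its values lay far above background, and its other probe sets differed by -1.74, -1.57 and -1.10. The other 4 had a limma adjusted p that rounds to 1: IRF5 at 1.90 (SE 0.42; 0.49 with values raised to the highest control), IRF1 at -1.09 (SE 0.27), MX2 at 1.47 (SE 0.44; 1.27 with values so raised) and USP18 at -1.22 (SE 0.45). Leaving out each line in turn, since every line goes against its label in part, OAS2 differed by 2.71 to 3.95 and IFI35 by -1.55 to -1.18, and no member passed in limma. MX1 differed by 2.15 with an SE of 1.15, and its B-labelled lines lay more than log2 3 apart.

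**Figure D5:**
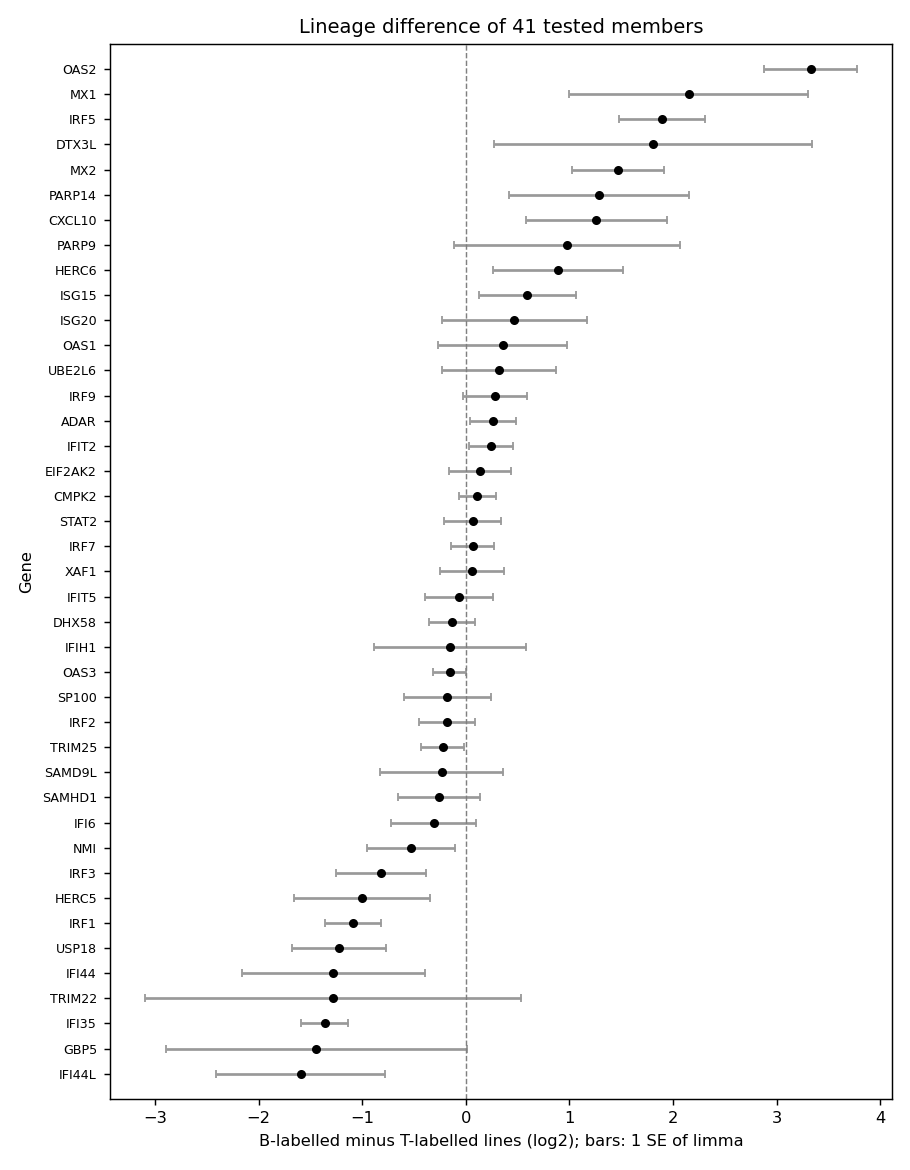
Difference of the mean log2 intensity, B-labelled minus T-labelled lines, for the 41 tested members; bars are 1 SE of the limma fit. OAS2 lies furthest right at 3.33 and IFI44L, GBP5 and IFI35 are among those furthest left, while MX1 has a wide bar, and no member passed after adjustment.

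Some myeloid markers differed with the label as OAS2, IRF5 and MX2 did. LYZ, lysozyme, was the 1 gene of 14162 that passed in limma. Of 15 markers, LYZ, SPI1, S100A8, S100A9, AIF1, CYBB and FCGR1A (7) lay in both B lines above every T line, beside 6.12% of all genes. The summed level of all 15 ran from 13.77 to 14.16 in B-labelled lines, against 10.18 to 10.59 in T-labelled lines, on the log2 scale. CD14 (7.95 to 8.26) hardly varied and MPO lay at background on every array. ITGAM was highest in T-labelled CLL-1390 (7.65), and TREM1 was above background in GL-1 alone (8.66). CD68 read 11.76 in 17-71, but 7.22 in GL-1 against 7.73 in CLGL-90. CSF1R, CSF3R and CD163 overlapped between the labels too. The part of the myeloid genes in the members' differences was not tested. The summed T-lineage level was highest in CLGL-90, the line with high TRIM22 and GBP5 (15.14, against 11.72 to 12.67 in the other 4 lines), and their part was not tested either.

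The wider interferon pathway was read from 60 further genes, of which 43 had a probe set and 42 were tested. Each was read from its brightest probe set alone, so the patterns of these genes were not checked on further probe sets. Again 0 of 42 passed in limma over all genes, beside 0.00706% of all genes. At an unadjusted limma p under 0.05 there were 6, beside 3.52% of all genes. By log2 2 or more 9 of 42 varied, beside 14.2% of all genes. Ligands gave little. IFNB1, interferon beta, was not tested (3.85 to 4.26), IFNK lay at background, and IFNG, interferon gamma, read 7.70 in CLGL-90, against 6.35 in 17-71, 6.25 in GL-1, 6.62 in CL-1 and 6.22 in CLL-1390. IFNG lay at background in 17-71, GL-1 and CLL-1390. CLGL-90, highest for GBP5, thus also had the highest IFNG intensity, and a link between these genes was not tested.

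The receptors of interferon gamma varied widely between lines. IFNGR2 measured 12.02 in 17-71 and 12.57 in GL-1, against 9.48 in CL-1, 7.82 in CLGL-90 and 7.33 in CLL-1390, a difference of 4.08 (SE 0.70, limma adjusted p = 0.804). IFNGR1, the ligand-binding chain, read 11.03 in 17-71 and 11.85 in GL-1, against 8.36 in CL-1, 11.81 in CLGL-90 and 8.11 in CLL-1390. CLL-1390 was lowest for both chains and the B lines were high for both. IFNAR1, a chain of the type I receptor, measured 8.42 in 17-71 and 9.29 in GL-1, against 10.69 in CL-1, 8.38 in CLGL-90 and 7.02 in CLL-1390. CL-1 was the highest line and CLL-1390 the lowest, and the kinases JAK1, JAK2 and TYK2 varied by 0.86 to 1.18.

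Among signal inducers and brakes, STING1 and PTPN6 varied most. STING1, the adaptor for cytosolic DNA, read 11.69 in 17-71 and 8.24 in GL-1, against 6.58 in CL-1, 6.94 in CLGL-90 and 6.61 in CLL-1390. PTPN6 (SHP-1), a phosphatase that curbs JAK signalling, measured 12.24 in 17-71 and 10.25 in GL-1, against 8.60 in CL-1, 6.96 in CLGL-90 and 6.72 in CLL-1390. Both genes were highest in 17-71, with GL-1 next. The feedback inhibitors SOCS1 and SOCS3 varied by 0.71 and 0.72 and read at or near background.

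Targets of interferon gamma did not share 1 pattern either. GBP1, a relative of GBP5, read 9.76 in 17-71 and 9.36 in GL-1, against 7.74 in CL-1, 11.79 in CLGL-90 and 10.87 in CLL-1390. IDO1, which breaks down tryptophan, read 11.31 in CL-1 and 5.83 to 6.16 in the other 4 lines. GBP6 was likewise above background in CL-1 alone, at 9.15, against 5.94 to 6.70. CL-1 was thus the highest line for IDO1 and GBP6 and the lowest for GBP1. PSMB10, an immunoproteasome subunit, varied by 2.03 and was highest in CLL-1390 (11.94), whereas PSMB8, PSMB9, TAP1, TAP2 and B2M of the antigen-processing pathway varied by 0.51 to 1.05.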

How the data were processed

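The values are log2 intensities that the authors deposited as 1 table for 5 arrays, made with GCRMA per the submitters' processing notes (the version is not given in the sources used here). GCRMA subtracts a sequence-based background and quantile-normalizes the arrays, so dim probe sets sit near a floor and fold changes there are compressed. The 111 Affymetrix control probe sets were left out of the tests. Gene symbols came from the platform annotation: 29254 probe sets had 1 symbol, 439 several and 13231 were not annotated. Of the probe sets with 1 symbol, 27680 (94.6%) matched the reference gene table, whose gene order was used for neighbours.

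The probe set of highest mean stood for its gene, which was tested if it reached log2 5 on 2 arrays. Lines were grouped by lineage label. limma 3.58.1 in R 4.3.3 fitted B minus T over all 14162 tested genes with empirical Bayes variances (3 residual and 1.74 prior degrees of freedom) and Benjamini-Hochberg adjustment at 0.05, and was tested on simulated data. Values are given for members that varied by log2 2, stood log2 1 apart from every other line or had one of the 6 lowest p-values, and for some others, named after their values were seen. The p-values measure the spread between lines only, and precision is limited by having 5 arrays. Alternatives changed the filter, normalization, floor, variance model, probe set, grouping of CLGL-90 and lines included. The members and gene lists were chosen with earlier results of these data known.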

Additional observations from a re-analysis of the deposited data

How the results depend on the processing

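No member passed limma over all genes under any of the 14 other settings of the fit, where 0 to 11 genes and 0 to 15 probe sets passed, 5 to 7 members had an unadjusted p under 0.05 and the lowest adjusted p of a member ran from 0.175 to 0.895. OAS2 differed by 2.71 to 3.95 and IFI35 by -1.74 to -1.18 over these settings, and 83 of 83 fits of OAS2, IFI35, IRF5, IRF1, MX2 and USP18, the 6 members of lowest p, kept their direction and side of the threshold. Of the 41 members, 18 changed sign under some setting, none of them called. Of the 15 at least log2 1 apart in the fit reported, TRIM22 alone did, at 0.45 without CLGL-90 in place of -1.28. IFIH1 read 1.05 without 17-71 in place of -0.15, ISG20 -0.41 without 17-71 in place of 0.47, and OAS1 -0.24 without GL-1 in place of 0.36. The 16 members that varied by log2 2 were 8 at log2 3, 12 to 15 without 1 line, and 9 with values floored at the highest non-dog control, a setting chosen after seeing the data. With that floor, 1 member stood above every other line in 17-71, 0 below in 17-71, 0 below in GL-1, 0 below in CLGL-90 and 0 above in CLL-1390. With a gap of log2 2, 1 stood above in 17-71 and 0 below in 17-71, 0 below in GL-1, 0 above and 0 below in CL-1, 0 below in CLGL-90 and 0 above in CLL-1390. After quantile normalization again, 1 stood above in CL-1 and 0 above in CLL-1390. With a filter at log2 7, 1 stood above in 17-71, 1 above in CLGL-90 and 0 above in CLL-1390, since fewer genes were tested. With the mean over probe sets, 0 stood below in GL-1. Leaving out 1 line gave 3 to 4 members above and 1 to 1 below in 17-71, 1 to 2 above and 1 to 2 below in GL-1, 2 to 3 above and 3 to 5 below in CL-1, 2 to 3 above and 1 to 4 below in CLGL-90, and 0 to 4 above and 0 to 1 below in CLL-1390. CLL-1390 had 4 above and 1 below without GL-1, 2 above without CL-1 and 0 above without CLGL-90. CL-1 had 5 below without CLGL-90, and CLGL-90 had 4 below without CL-1. GL-1 had 2 above and 2 below without 17-71, and 2 above without CLL-1390. Other than fewer lines or genes, the cause of these shifts was not tested. No paired analysis was possible because the labels pair no B-labelled line with a T-labelled line. Signal near the controls limits HERC5, IRF5, CXCL10 and the low ends of OAS2, TRIM22 and DTX3L.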
